A study of Mus musculus with 2 samples.

Results

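Chemokines that epithelial cells themselves can make were followed across the anorectal junction of the mouse, where the stratified epithelium of the anal canal meets the glandular epithelium of the rectum. Both feature tables share 30406 genes (31054 genes in the normal library and 32285 in the wounded library). Of these, 8 were taken by name from a given list, which was chosen with earlier results of these data known. The 8 genes are Cxcl1, Cxcl2, Ccl20, Cxcl14, Cxcl16, Cxcl17, Ppbp and Ccl27a. They were counted in the 4 clusters that the authors named in the normal sample, in the 6 that they named in the wounded sample, and in the cells that passed the study's stated filters but carry no deposited cluster name, called left-out cells here.

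Single cells came from K17CreERT2;R26RGFP mice on the C57/BL6J background, in which tamoxifen switches on a green reporter in cells with an active Krt17 promoter. All mice received tamoxifen on 2 occasions. The normal sample was taken from unwounded animals, and the wounded sample 1 week after rectal crypts had been removed with hot EDTA and a brush in animals of 2 to 4 months. Wounding was done under isoflurane after an injection of METACAM, and neither is described for the normal sample. The normal animals were induced with tamoxifen for 2 days, so the time since tamoxifen differed as well. An age of 6 to 8 weeks is stated for the in vivo work in general. Tissue of at least 5 mice was pooled, live EpCAM+ cells were sorted away from cells bearing CD45, CD11b, CD31 or PDGFRa, and each pool was sequenced as 1 library. There is thus 1 library per condition, so that no p-value can be given, the condition and the library cannot be told apart, and every interval covers counting error only.

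Chemokines are small secreted proteins that guide leukocytes through G protein-coupled receptors. Cxcl1 and Cxcl2 draw neutrophils through Cxcr2 and are classical products of NF-kB signalling, and Ccl20 attracts Ccr6+ dendritic cells and lymphocytes. Ppbp (Cxcl7) is best known as a platelet protein whose cleaved forms also act on Cxcr2. Cxcl14 and Ccl27a are made by resting skin, the latter recruiting Ccr10+ T cells. Cxcl16 is a membrane-bound ligand of Cxcr6 that is shed by Adam10, and Cxcl17 is a chemokine-like product of mucosal surfaces.

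In the genome (GRCm38, GENCODE M21 annotation), Ppbp (chr5:90768518-90770063), Cxcl1 (chr5:90891241-90893115) and Cxcl2 (chr5:90903871-90905938) lie on the plus strand within a stretch of 147 kb on chromosome 5 that also holds Cxcl5, Pf4, Cxcl3 and Cxcl15. The other 5 genes lie apart: Ccl20 at chr1:83116766-83119167 on the plus strand, and on the minus strand Cxcl14 at chr13:56288643-56296551, Cxcl16 at chr11:70453983-70459984, Cxcl17 at chr7:25400053-25412886 and Ccl27a at chr4:41769467-41774247. RefSeq promoter entries (GRCm38.p6) were found for 6 of the 8 genes, all but Cxcl16 and Cxcl17. Their transcription starts are not always the gene starts given above. The printed bases of Cxcl1 and Cxcl2 run to 90891244 and 90903898, past those gene starts. Motif positions are counted from the starts of the RefSeq entries. The 250 bases before the transcription start are printed for the 3 genes called higher in wound-associated cells below. They are also printed for Ppbp, of the same stretch of chromosome 5, which was lower there through its level in wounded Basal cells. Capitals mark motifs searched on both strands, namely an NF-kB type motif (GGG, any 3 bases, then TTCC), an AP-1 type motif (TGANTCA) and TATAAA.
Cxcl1, chr5:90890995-90891244, plus strand: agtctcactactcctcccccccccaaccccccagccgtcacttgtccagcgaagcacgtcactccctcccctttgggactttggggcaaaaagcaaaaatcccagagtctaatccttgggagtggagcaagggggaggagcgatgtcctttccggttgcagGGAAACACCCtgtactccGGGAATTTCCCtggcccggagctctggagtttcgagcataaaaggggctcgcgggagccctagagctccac
Cxcl2, chr5:90903649-90903898, plus strand: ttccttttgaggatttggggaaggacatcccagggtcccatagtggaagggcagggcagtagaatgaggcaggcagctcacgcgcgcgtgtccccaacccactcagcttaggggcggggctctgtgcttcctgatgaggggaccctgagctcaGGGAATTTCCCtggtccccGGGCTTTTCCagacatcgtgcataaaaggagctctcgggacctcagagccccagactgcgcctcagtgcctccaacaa
Ccl20, chr1:83116516-83116765, plus strand: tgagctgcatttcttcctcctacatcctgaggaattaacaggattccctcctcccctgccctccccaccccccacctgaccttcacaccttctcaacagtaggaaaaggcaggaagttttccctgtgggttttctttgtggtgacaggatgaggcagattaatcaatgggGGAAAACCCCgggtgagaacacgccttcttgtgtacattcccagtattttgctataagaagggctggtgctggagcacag
Ppbp, chr5:90768268-90768517, plus strand: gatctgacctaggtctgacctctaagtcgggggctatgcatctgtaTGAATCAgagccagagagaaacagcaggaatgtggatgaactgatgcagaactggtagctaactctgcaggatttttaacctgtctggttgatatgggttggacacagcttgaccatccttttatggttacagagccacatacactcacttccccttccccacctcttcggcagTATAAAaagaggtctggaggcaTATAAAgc
The NF-kB type letters stood in Cxcl1, Cxcl2 and Ccl20, and in 4.65% of 32851 promoters of all genes. Counted from the last base before the start, they stood at -89 to -80 and -71 to -61 in Cxcl1, where 2 matches overlap on opposite strands, at -97 to -87 (again 2 overlapping matches) and -78 to -69 in Cxcl2, and at -80 to -71 in Ccl20. Ppbp held no such match and had the AP-1 type letters at -204 to -198, a motif in 6.75% of promoters, and TATAAA at -30 to -25 and -8 to -3, a motif in 12.4%. Of 3 promoter entries of Ccl27a, 1 held the AP-1 type letters at -77 to -71, and Cxcl14 held none of the 3 motifs. A match describes the letters only and does not show a site in use.

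The normal library held 17617944 unique molecular identifiers (UMIs, each standing for 1 captured transcript) over all barcodes and the wounded library 88260050. The normal library held 939 named cells and 610 left-out cells, and the wounded library 4147 and 1078, with medians of 9724 and 10077 UMIs per named cell. The wounded Hybrid cells were shallow, at a median of 2390 UMIs. 1 barcode occurred in both libraries and it did not pass the filters in both. The name Basal did not mark the same cells in both libraries, which bears on each comparison made by that name. The stratified suprabasal marker list (Krt1, Krt10, Krt13, Krt4, Sbsn, Krtdap and Ivl) summed to 391 CPM (counts scaled to 1000000 UMIs of the cluster) in the normal Basal cluster and to 10025 CPM in the wounded Basal cluster, the latter near the 10164 CPM of the normal Anal Canal cluster. When cells were clustered anew without the chemokine and pathway genes, 555 of the 573 wounded Basal cells fell into 1 cluster led by Sprr2d, Ppbp and Ltf. The wounded library has no cluster named Anal Canal, so its Basal cluster is set against both the normal Basal and the normal Anal Canal cluster below. Of the 316 Hybrid cells, 288 lay in 6 rebuilt clusters with at least 20 of them each, and their list of enteroendocrine markers (Chga, Chgb, Gcg, Pyy and Neurod1) summed to 19263 CPM.

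**Figure D1:**
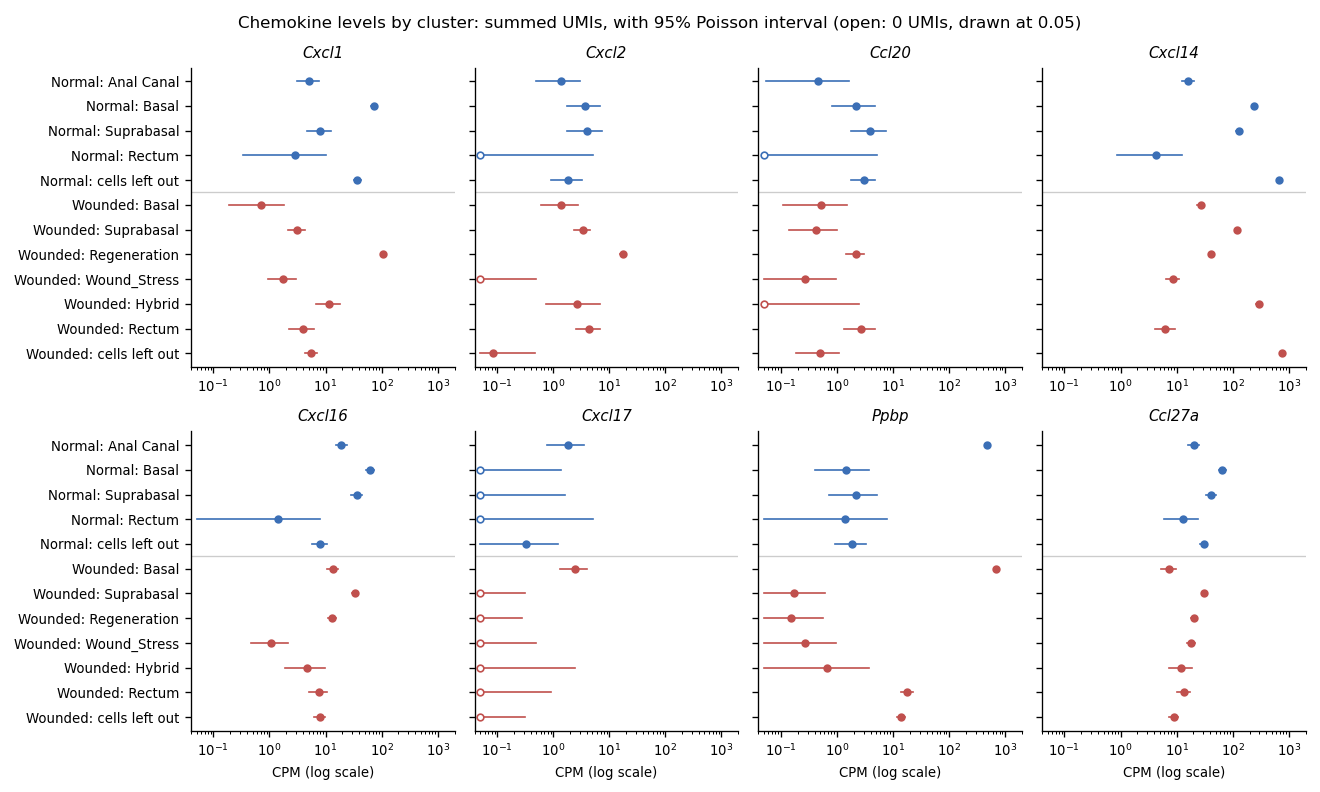
Levels of the 8 chemokines by cluster, in CPM on a log axis, with exact 95% Poisson intervals (blue, normal; red, wounded; open points, 0 UMIs). Cxcl1 peaked in normal Basal and wounded Regeneration cells, Ppbp in normal Anal Canal and wounded Basal cells, and Cxcl14 in left-out cells of both libraries.

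Among named cells Cxcl1, a neutrophil attractant, was concentrated in 1 cluster of each library. Left-out cells, described below, held 221 UMIs of it in the normal library beside 241 in named cells. In the normal library it stood at 73.6 CPM (95% interval 63.7 to 84.5, 199 UMIs) in Basal cells, against 7.89 CPM in Suprabasal, 5.02 CPM in Anal Canal and 2.84 CPM in Rectum cells, the last on 2 UMIs. In the wounded library the level was 105 CPM (99.1 to 110.3, 1360 UMIs) in Regeneration cells. It was 11.5 CPM in Hybrid, 3.89 in Rectum, 3.11 in Suprabasal, 1.74 in Wound_Stress and 0.697 CPM in Basal cells. These clusters held 82.6% of the UMIs of named normal cells and 94.1% of those of named wounded cells. Below those clusters the order was less firm: Hybrid stood above Rectum in the wounded library (log2 ratio 1.56, 0.48 to 2.64), and the intervals of all other neighbours in the order held 0.

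Most cells of these clusters had no Cxcl1 UMI. In normal Basal 28 of 257 cells (10.9%) had at least 1, and 3 cells held 118 of the 199 UMIs (59.3%). In Regeneration 245 of 991 cells (24.7%) had at least 1 and the 3 highest cells held 8.75% of the UMIs, so the count was shared by many more cells. After thinning every cell to 2000 UMIs, the share was 5.10% (2.74 to 8.56) in normal Basal and 10.1% (8.33 to 12.2) in Regeneration, against 0.244% in Wound_Stress, whose median depth was 8532 UMIs where Regeneration had 12616. Rebuilt clusters divided the Regeneration cells. In the one led by Saa3, Wfdc12 and Egr4, 612 Regeneration cells had 130.0 CPM (122 to 138), and in another, shared with Suprabasal cells, 258 Regeneration cells had 90.0 CPM (79.1 to 102) beside 1.86 CPM (0.805 to 3.67) in 509 Suprabasal cells. The other 2 with at least 20 Regeneration cells had 39.2 CPM in 43 cells and 15.5 CPM in 71 cells.

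Cxcl2, the close relative and neighbour of Cxcl1, had fewer UMIs in fewer cells. It reached 17.8 CPM (15.6 to 20.3) in Regeneration cells, where 28 of 991 cells held its 232 UMIs and 3 of them held 104. No UMI was found in the 838 Wound_Stress cells, a count that allows a share of up to 0.358% of cells with a UMI (3 counts in 838 cells). In the other named clusters of both libraries it lay between 0 and 4.38 CPM, and 15 of the 18 UMIs in wounded Rectum and 26 of the 39 in wounded Suprabasal came from 1 cell each. Ccl20 was near the limit of detection throughout. It had 28 UMIs (2.15 CPM, 1.43 to 3.11) in Regeneration and 11 UMIs (2.68 CPM, 1.34 to 4.79) in wounded Rectum, which could not be told apart, and 0 to 3.94 CPM in normal clusters, where the 9 UMIs of Suprabasal came from 1 cell.

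The study put Regeneration and Wound_Stress forward as its wound-associated stratified clusters, so they were set against the wounded Basal and Suprabasal clusters. The anal gland marker list (Plin2, Scd1, Mgst1, Adh1, Psph, Ermp1, Mgll and Rgcc) summed to 4735 CPM in Regeneration and 4066 CPM in Wound_Stress. It summed to 363 CPM in wounded Basal, 848 CPM in wounded Suprabasal and 5005 CPM in normal left-out cells. The part of this difference in the ratios below was not tested. A member was called where the ratio of summed UMIs was at least 2-fold, its 95% interval left out 0 and both groups together held at least 20 UMIs. Here and below members are counted out of all 8, whereas the shares of all genes are over genes with at least 20 UMIs. A member under that minimum, here Cxcl17, could not be called. Of the 8 chemokines 6 were called, 3 higher and 3 lower, where 20.6% of all 13485 genes tested were called (8.1% higher and 12.5% lower). Cxcl1 (log2 ratio 4.86, 4.41 to 5.35), Cxcl2 (2.06, 1.60 to 2.55) and Ccl20 (1.67, 0.51 to 3.0) were higher. Cxcl14 (-1.59, -1.73 to -1.46), Cxcl16 (-1.61, -1.87 to -1.36) and Ppbp (-10.22, -12.09 to -8.86) were lower, and Ccl27a (-0.25) did not reach 2-fold. Each cluster was then taken alone, a choice made after the data were seen. In Regeneration alone, where 20.9% of genes were called (7.72% higher and 13.2% lower), the log2 ratios were 5.50 for Cxcl1, 2.72 for Cxcl2 and 2.22 for Ccl20, whereas in Wound_Stress alone, where 22.5% were called (8.22% higher and 14.3% lower), they were -0.41 (-1.43 to 0.53) for Cxcl1, at most -2.76 for Cxcl2, which had 0 UMIs, and -0.79 on 2 UMIs for Ccl20. Against this pooled base Cxcl14 and Cxcl16 were lower in either cluster, at -1.10 and -1.02 in Regeneration and -3.38 and -4.63 in Wound_Stress. The base pools unlike clusters. In Regeneration Cxcl14 was above wounded Basal (41.6 against 26.8 CPM, log2 ratio 0.63, 0.37 to 0.90) and below Suprabasal (120 CPM). Cxcl16 there could not be told apart from Basal (13.1 and 13.4 CPM). In Wound_Stress both were below Basal (8.58 and 1.07 CPM). Ppbp of the base lay in Basal (701 CPM), with 0.173 CPM in Suprabasal, 0.154 in Regeneration and 0.268 in Wound_Stress.

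Genes of the pathway that acts on the Cxcl1 promoter in other settings were counted beside it. Of 17 NF-kB subunits and feedback genes, 11 were higher and 0 lower in Regeneration than in Basal and Suprabasal, where 7.72% of all genes were higher and 13.2% lower, with a median log2 ratio of 1.36 against -0.07 over all 13139 genes tested. Nfkbia, the inhibitor that NF-kB induces to end its own activity, stood at 598 CPM in Regeneration and between 65.4 and 124 CPM in the other wounded clusters. Zfp36, which promotes the decay of cytokine mRNAs, stood at 309 CPM in Regeneration and had a log2 ratio of 2.87 (2.76 to 2.99), and Nfkbiz, an inducible co-activator, had 1.96 (1.81 to 2.10). The subunit Nfkb1 (0.52) and the target gene Sod2 (0.83) did not reach 2-fold. In Wound_Stress 0 of the 17 were higher and 2 lower, where 8.22% of all genes were higher and 14.3% lower.

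The immediate-early genes (Fos, Jun, Egr1, Atf3 and 8 others), which cells switch on within minutes of many stimuli including enzymatic dissociation, were summed in the same clusters. The 12 genes summed to 13814 CPM in Regeneration, 3239 in Suprabasal, 2792 in Hybrid, 2239 in Rectum, 1015 in Wound_Stress and 630.3 CPM in Basal cells of the wounded library. In the normal library they summed to 8305 CPM in Basal and to between 1364 and 1766 CPM in the other 3 clusters. In Regeneration 10 of 12 were called higher, where 7.72% of all genes were. In left-out cells the list and Cxcl1 did not always go together. Those with hair follicle markers had list sums of 9105 CPM (normal) and 8569 CPM (wounded) beside Cxcl1 at 5.84 and 2.5 CPM. Those with muscle and mural markers in the wounded library had 6745 CPM beside Cxcl1 at 73.0 CPM. Over the 10 named clusters the genes most like Cxcl1 among 7433 were Junb (Pearson r of log2(CPM + 1) 0.954), Nr4a1 (0.950) and Fos (0.932), a description of 10 points that share 2 libraries. The part of these genes, or of the dissociation, in the Cxcl1 levels was not tested.

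**Figure D2:**
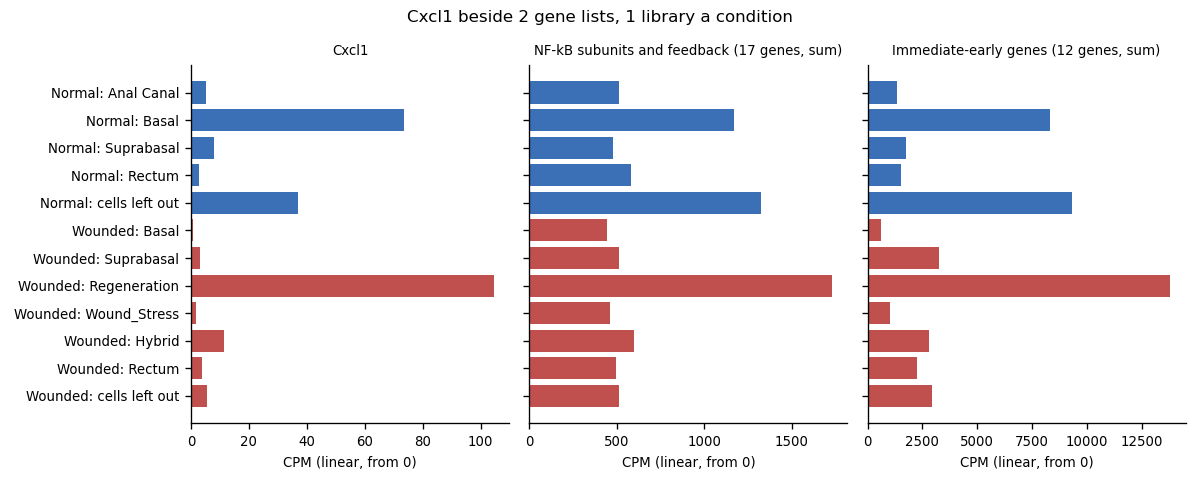
Cxcl1, the summed NF-kB list (17 genes) and the summed immediate-early list (12 genes) in each cluster, in CPM on linear axes that start at 0 (blue, normal; red, wounded; 1 library per condition). The tallest bar of each library's named clusters is the same in all 3 panels, normal Basal and wounded Regeneration.

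Within Regeneration the cells with Cxcl1 could be set against those without, after thinning to 2000 UMIs. Nfkbia was detected in 79.0% (69.7 to 86.5) of 100 cells with Cxcl1 and in 46.0% (42.7 to 49.4) of 886 without. Nfkbiz was detected in 33.0% (23.9 to 43.1) and 21.3% (18.7 to 24.2), Zfp36 in 53.0% (42.8 to 63.1) and 40.7% (37.5 to 44.1), and Icam1, the adhesion molecule of leukocytes, in 28.0% (19.5 to 37.9) and 16.3% (13.9 to 18.8). For Nfkbia, Icam1 and Cxcl2 (6.0%, 2.23 to 12.6, against 0.677%, 0.249 to 1.47) the intervals did not overlap. The share of all genes with such a gap was not computed, so the gaps cannot be called particular to these genes. Regeneration cells also differed in Cxcl1 between rebuilt clusters, as given above. The intervals of Nfkbiz and Zfp36 overlapped, as did those of Fos (90.0% and 85.3%), Il33 (27.0% and 20.3%) and Cxcl14 (3.0% and 6.21%). The normal Basal cluster had 13 such cells beside 242 without Cxcl1. There the intervals did not overlap for Nfkbiz (38.5%, 13.9 to 68.4, against 5.79%, 3.2 to 9.52) and overlapped for the other 12 genes looked at, among them Nfkbia (46.2%, 19.2 to 74.9, against 23.1%, 18.0 to 29.0).

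The members were next compared between the libraries, name by name. Against normal Basal, wounded Basal had 5 of the 8 called, 4 lower and 1 higher, where 27.8% of 11035 genes were called (14.5% higher and 13.3% lower). Cxcl2, Ccl20 and Cxcl17 were under 20 UMIs there and could not be called. Cxcl1 was lower by the largest amount (log2 ratio -6.72, -8.61 to -5.34, 4 against 199 UMIs), followed by Ccl27a (-3.16), Cxcl14 (-3.15) and Cxcl16 (-2.23), and Ppbp was higher (8.89, 7.53 to 10.76). Against normal Anal Canal, a base chosen after the marker levels were seen, 2 were called, where 16.3% of 11087 genes were (9.54% higher and 6.8% lower). These were Cxcl1 (-2.85, -4.85 to -1.29) and Ccl27a (-1.46, -2.02 to -0.91), whereas Cxcl14 turned to 0.73 (0.31 to 1.15), Ppbp to 0.56 (0.48 to 0.63) and Cxcl16 to -0.52 (-0.98 to -0.05). The immediate-early list was lower in wounded Basal for 12 of 12 genes against normal Basal and for 6 of 12 against Anal Canal, and its part in the lower Cxcl1 was not tested. The Suprabasal clusters were much closer. There Ccl20, Cxcl17 and Ppbp were under 20 UMIs and could not be called. Of the 8 chemokines 1 was called, where 17.8% of genes were (12.6% higher and 5.16% lower), namely Cxcl1 (-1.34, -2.20 to -0.44, 36 against 18 UMIs). A single cell held 9 of the 18 normal UMIs, and Cxcl1 was not called from the mean of the per-cell CPM. Cxcl14 (-0.13, -0.31 to 0.06), Cxcl16 (-0.12, -0.47 to 0.24) and Ccl27a (-0.41, -0.74 to -0.07) stayed within 2-fold, intervals included. The immediate-early list had 6 of 11 genes higher and 0 lower in the wounded Suprabasal cluster. Against normal Basal and Suprabasal cells together, a base also chosen after the data were seen, 2 were lower, where 16.1% of genes were called (7.85% higher and 8.3% lower), namely Cxcl1 (-3.81) and Ccl20 (-2.80). The Ccl20 call rested on 5 against 15 UMIs, and 9 of the 15 came from 1 normal Suprabasal cell.

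**Figure D3:**
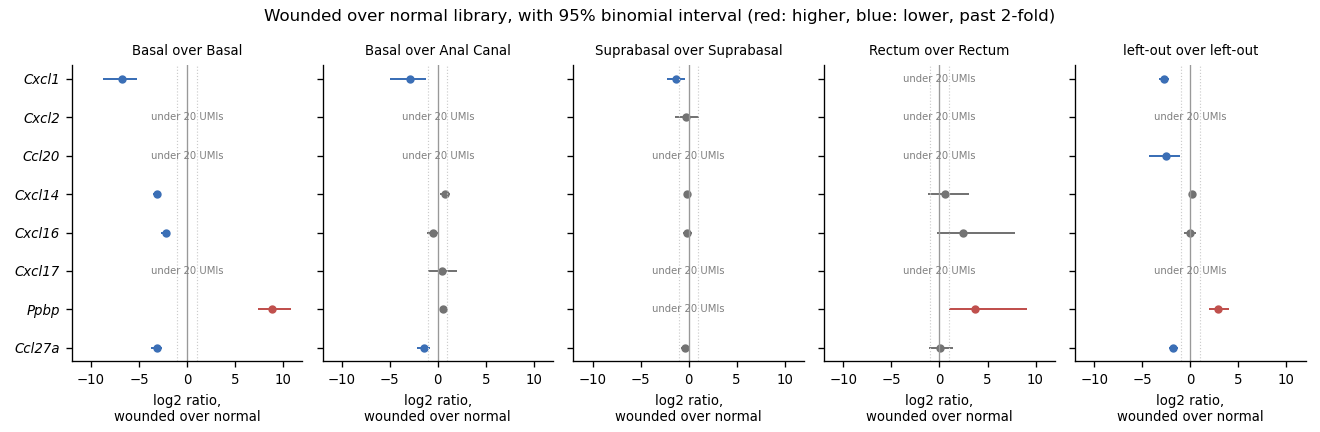
Log2 ratio of wounded over normal library for each chemokine in 5 comparisons, with exact 95% binomial intervals (red, called higher; blue, called lower; grey, not called; dotted lines, 2-fold; no point under 20 UMIs). With Anal Canal in place of Basal as the normal base, Cxcl14, Cxcl16 and Ppbp move inside the 2-fold lines while Cxcl1 stays below.

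Cxcl14 was highest among named normal cells in Basal, at 238 CPM (220.0 to 257), where 59.5% of cells had at least 1 UMI (32.5% after thinning), against 4.76% of Rectum cells, with median depths of 9971 and 10885 UMIs. It was followed by Suprabasal at 131 CPM, Anal Canal at 16.2 CPM and Rectum at 4.26 CPM on 3 UMIs, and each neighbour in that order differed beyond its interval. In the wounded library the order was Hybrid at 293 CPM (266 to 322), Suprabasal at 120.2, Regeneration at 41.6, Basal at 26.8, Wound_Stress at 8.58 and Rectum at 6.33 CPM, of which the last 2 could not be told apart. Hybrid cells were 5.53 (4.96 to 6.16) above Rectum and 3.45 (3.18 to 3.72) above Basal on the log2 scale, in comparisons where 3 and 4 of the 8 chemokines were called. Of all genes 24.9% were called against Rectum (12.8% higher and 12.2% lower) and 18.1% against Basal (12.5% higher and 5.54% lower). The others called were Cxcl1 (1.56 and 4.04 higher) and Ppbp (-4.74 and -10.02), and Cxcl16 against Basal (-1.51, on 7 Hybrid UMIs). The Ppbp difference from Rectum rested on 1 Rectum cell with 73 of its 74 UMIs, and was not called when the cell with the most UMIs of a member was left out of each group, a check added after the data were seen. Cxcl1 over Basal rested on 17 against 4 UMIs. By the same check it fell under 20 UMIs and was not called (3.98, 2.09 to 6.44). In cells under 10% mitochondrial UMIs 2 rather than 4 members were called against Basal. The Hybrid level was uneven. It was 622 CPM in the 65 cells that shared a rebuilt cluster with Wound_Stress, 19 of which had a UMI. The 645 Wound_Stress cells of that cluster had 9.01 CPM. The Hybrid level was 215 CPM in 61 cells of an endothelial-like cluster. It was 4.24 CPM, on 1 UMI, in the 27 that formed an enteroendocrine-like cluster. The 6 rebuilt clusters named above held 143, 57, 39, 31, 9 and 1 of the 434 Hybrid UMIs of Cxcl14. The rest lay in Hybrid cells outside them, which are not in these values. Inner root sheath and endothelial markers summed to 1421 and 267 CPM in Hybrid. Over the 10 clusters the genes most like Cxcl14 were Ddah2 (r 0.938), Hspa2 (0.925) and Tuba1a (0.906).

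The highest Cxcl14 levels lay outside the named epithelium. Left-out cells had 679 CPM (659 to 701) in the normal and 774 CPM (758 to 790.2) in the wounded library, 2.75 (2.65 to 2.85) and 3.69 (3.62 to 3.75) above named cells on the log2 scale, in comparisons where 3 and 5 chemokines were called. Of all genes 22.8% were called in the normal library (13.3% higher and 9.5% lower) and 24.1% in the wounded (14% higher and 10.1% lower). Cxcl16 (-2.09) and Ppbp (-6.83) were lower in normal left-out cells, and Ppbp (-2.76), Cxcl1 (-2.58), Cxcl2 (-6.36, on 1 UMI) and Ccl27a (-1.18) in wounded ones. Of the wounded left-out Ppbp UMIs 160 of 166 came from 1 cell, and with the top cell left out on both sides the log2 ratio was -7.39 (-8.84 to -6.27). Hair follicle-like cells, called so from Lhx2, Lgr5, Tbx1, Sox9, Krt75 and Gli1, had 2602 CPM (2517 to 2689) in 186 normal cells and 4851 CPM (4728 to 4976) in 182 wounded cells, a log2 difference of 0.90 (0.84 to 0.96). Fibroblast-like cells of the wounded library had 989 CPM, and the normal cluster with fibroblast and muscle markers 936 CPM, beside Cxcl12, the Cxcr4 ligand of stroma, at 1071 and 1408 CPM. Anal gland-like cells, named from a list the study itself drew from the normal sample, had 29.0 CPM in the normal and 6.82 CPM in the wounded library.

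Cxcl1 was also carried by left-out cells, at 36.9 CPM (32.2 to 42.1) in the normal and 5.56 CPM (4.30 to 7.08) in the wounded library. Between the left-out cells of both libraries 4 of the 8 chemokines were called, where 21% of genes were (12.9% higher and 8.13% lower). Cxcl1 (log2 ratio -2.73, -3.15 to -2.33), Ccl20 (-2.57, -4.19 to -1.18) and Ccl27a (-1.78, -2.14 to -1.43) were lower in the wounded library, and Ppbp (2.93) was higher through 1 cell described below. With the top cell of each member left out on both sides 2 were called, Cxcl1 (-3.17) and Ccl27a (-1.76), since Ccl20 then had 16 UMIs (-2.57) and Ppbp was at 0.506 CPM in wounded and 1.67 CPM in normal left-out cells. The makeup of the left-out cells differed between the libraries, and its part in these differences cannot be told apart from the wound. The normal Cxcl1 lay mostly in anal gland-like cells, with 196 UMIs or 49.0 CPM (42.4 to 56.4) in 329 cells, against 2 UMIs in 424 wounded anal gland-like cells. The immediate-early list summed to 9801 CPM in the former and 1181 CPM in the latter. Finer clustering moved this result, since at a resolution of 0.4 the 92 normal cells still called anal gland-like had 3.6 CPM, and 192 of the UMIs fell in cells of an unnamed cluster led by Saa3, Il33 and Egr4. The 237 left-out cells of that unwounded cluster had Cxcl1 at 66.5 CPM and an immediate-early sum of 12039 CPM. In the wounded library 52 of the 66 Cxcl1 UMIs of left-out cells lay in 104 muscle and mural-like cells (73.0 CPM, 54.5 to 95.8), 29 of them in 1 cell.

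**Figure D4:**
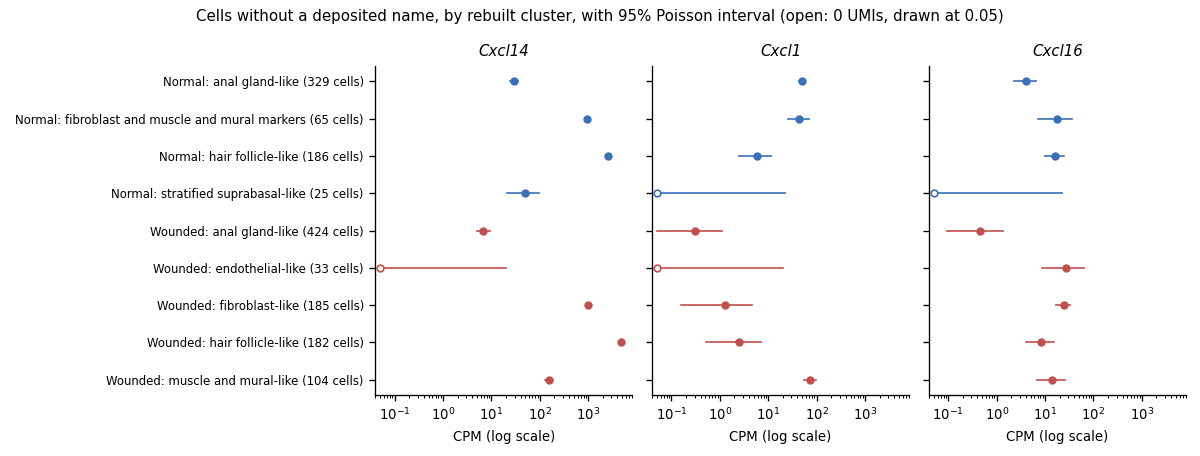
Cxcl14, Cxcl1 and Cxcl16 in left-out cells by rebuilt cluster, in CPM on log axes with exact 95% Poisson intervals (blue, normal; red, wounded; open points, 0 UMIs; clusters with under 20 left-out cells or no name are not drawn). Cxcl14 is highest in the hair follicle-like cells of both libraries, and Cxcl1 stands at 49.0 CPM in normal and 0.303 CPM in wounded anal gland-like cells.

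Cxcl16 and Ccl27a followed the stratified layers at lower levels. Cxcl16 stood at 62.8 CPM (53.8 to 73.0) in normal Basal, 35.9 in Suprabasal, 19.2 in Anal Canal and 1.42 CPM in Rectum cells. In the wounded library it was highest in Suprabasal (33.0 CPM, 29.8 to 36.5), near 13 CPM in Basal and Regeneration, whose levels could not be told apart, and 1.07 CPM in Wound_Stress. Its sheddases were present in every cluster, Adam10 at 17.2 to 52.8 CPM and Adam17 at 7.10 to 28.8 CPM, with the lowest Adam10 level in Regeneration. Ccl27a had 65.4 CPM (56.1 to 75.8) in normal Basal, 41.6 in Suprabasal, 20.1 in Anal Canal and 12.8 in Rectum cells, and in the wounded library ranged from 31.4 CPM in Suprabasal to 7.32 in Basal. The genes most like them over the 10 clusters were Pdlim4 (r 0.955), Foxq1 and Slc16a3 for Cxcl16, and Gas7 (0.940), Ado and Cd151 for Ccl27a. Ccl27a has near-identical copies in the mouse genome, so its counts are uncertain. The copies Gm13306 and Gm20878 had 4 and 9 UMIs in the normal library beside 559 of Ccl27a, and 2 and 18 beside 1145 in the wounded library.

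Basal and Suprabasal cells compared differently in the 2 libraries. In the normal library 1 chemokine was called in Suprabasal over Basal, where 21.9% of genes were (6.22% higher and 15.7% lower), Cxcl1 at -3.22 (-4.01 to -2.52), and Cxcl14 (-0.86), Cxcl16 (-0.81) and Ccl27a (-0.65) leaned to Basal within 2-fold. The other members, Cxcl2, Ccl20, Cxcl17 and Ppbp, were under 20 UMIs there and could not be called. In the wounded library 6 were called, where 20% of genes were (9.19% higher and 10.8% lower). Cxcl14 (2.16, 1.92 to 2.41), Cxcl1 (2.16, 0.68 to 4.11), Ccl27a (2.10, 1.64 to 2.60), Cxcl16 (1.30, 0.94 to 1.67) and Cxcl2 (1.27, 0.16 to 2.58) were higher in Suprabasal, and Ppbp (-11.99) was lower. Of the 39 Suprabasal UMIs of Cxcl2 26 came from 1 cell, and its log2 ratio was 0.69 (-1.0 to 2.76) with the top cell left out on both sides and -0.47 from the mean of the per-cell CPM. The wounded Basal cluster carries suprabasal markers, as described above, and its part in this contrast cannot be told apart from the wound.

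Several of the 8 chemokines were lower in the glandular Rectum cells than in the summed stratified clusters. Rectum cells against all stratified clusters gave 5 called lower in the normal library, where 25.9% of genes were called (15.3% higher and 10.6% lower). These were Ppbp (-7.30), Cxcl14 (-4.67), Cxcl16 (-4.66), Cxcl1 (-3.17) and Ccl27a (-1.59). The wounded library also had 5 called, where 30.6% of genes were (17.7% higher and 12.9% lower). Cxcl1 (-3.26), Cxcl14 (-3.17), Ppbp (-2.57) and Cxcl16 (-1.16) were lower and Ccl20 (1.41, 0.29 to 2.41, 11 UMIs in Rectum) was higher. The summed base pools unlike clusters. Wounded Rectum had Cxcl1 at 3.89 CPM, beside 105 in Regeneration, 3.11 in Suprabasal, 1.74 in Wound_Stress and 0.697 in Basal. Its Cxcl16 (7.54 CPM) was above Wound_Stress (1.07 CPM), from which its Cxcl14 could not be told apart. Normal Ppbp was at 1.42 CPM in Rectum and 1.48 in Basal. Normal Cxcl14 and Cxcl16 were lower in Rectum than in each stratified cluster. From the mean of the per-cell CPM the log2 ratio of Cxcl16 was 0.04 in place of -1.16. With the top cell left out on both sides Ccl20 was not called (1.06, -0.37 to 2.27) and Ppbp was at -8.61. Normal Rectum rested on 63 cells. Ccl6, which draws macrophages, was highest there, at 222 CPM in normal and 657 CPM in wounded Rectum and at most 8.77 CPM in each other named cluster. The immune marker list summed to 146 CPM in normal and 93.4 CPM in wounded Rectum, with 2 and 9 of its 15 genes detected. Ly6g made up 145 and 74.4 CPM of these sums, Ptprc stood at 0 and 0.73 CPM, and their part in the Ccl6 level was not tested. Between the libraries Cxcl1, Cxcl2, Ccl20 and Cxcl17 were under 20 UMIs in Rectum and could not be called. There 1 member was called, where 12.4% of genes were (7.08% higher and 5.32% lower). It was Ppbp (3.66), of which 73 of the 74 wounded UMIs came from 1 cell of 18340 UMIs that also held 187 Psca and 212 Muc2 UMIs. Without that cell wounded Rectum had 0.244 CPM.

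Ppbp was concentrated in a few cells of 1 cluster in each library. It stood at 477 CPM (457 to 498) in normal Anal Canal, where 31 of 432 cells (7.18%, or 5.54% thinned) held 2089 UMIs, and at 701 CPM (679 to 723) in wounded Basal, where 38 of 573 cells (6.63%, or 5.32% thinned) held 4022. The other normal clusters had 1.42 to 2.19 CPM and the other wounded clusters apart from Rectum 0.154 to 0.674 CPM, with no cell above 1 UMI. For comparison, 1.56% of normal Basal and 0.202% of Regeneration cells had a Ppbp UMI, at median depths of 9971 and 12616 UMIs, against depths of 8437.5 in Anal Canal and 9075 in wounded Basal. The top 3 cells held 641, 537 and 395 UMIs in the normal library, or 75.3% of the cluster's total, and 423, 400 and 396 in the wounded library, or 30.3%. In the left-out cells of the wounded library 160 of 166 UMIs came from 1 cell with 525 Psca and 125 Ltf UMIs, and without it their level was 0.506 CPM.

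**Figure D5:**
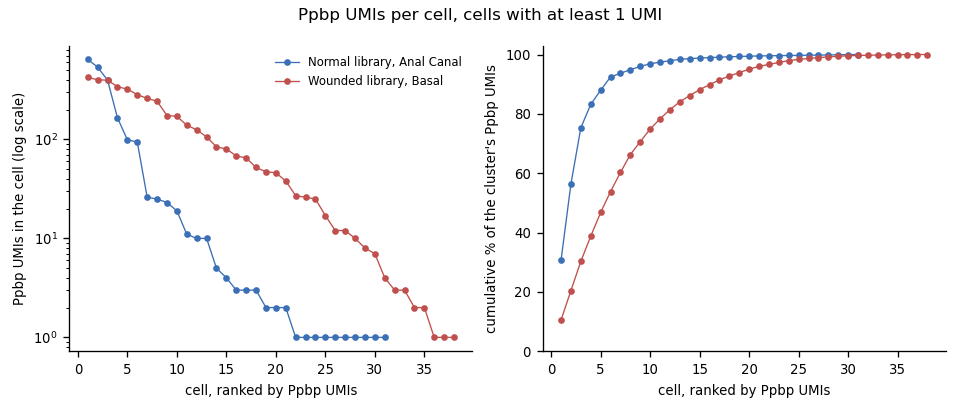
Ppbp UMIs per cell, cells ranked from highest to lowest (left, log axis), and the cumulative percentage of the cluster's Ppbp UMIs (right), for the 31 normal Anal Canal cells (blue) and 38 wounded Basal cells (red) with at least 1 UMI. 3 cells held 75.3% of the normal total and 30.3% of the wounded total.

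Cells with at least 10 Ppbp UMIs, 13 in normal Anal Canal and 28 in wounded Basal, were summed and set against the rest. They held more of several genes, though not every cell held each gene, a description since the cells were picked by Ppbp. Cxcl5, a further Cxcr2 ligand encoded beside Ppbp, was at 839 CPM in the rich cells and 14.2 CPM in the rest of Anal Canal, and at 4777 and 4.95 CPM in wounded Basal, where the rich cells held 1360 of its 1387 UMIs. Cxcl5 was found in 7 of the 13 and 25 of the 28 rich cells. Cxcl3, of the same gene stretch, had 13 of 17 and 38 of 38 UMIs in the rich cells, from 2 normal and 11 wounded cells. Psca, a surface protein of differentiated mucosal epithelium, was at 19277 against 30.9 CPM in normal Anal Canal and at 25586 against 48.4 CPM in wounded Basal. Ltf, the iron-binding lactoferrin of secretions, was at 5016 against 11.8 CPM and 9189 against 19.6 CPM, and Mal at 1245 against 28.1 CPM and 4194 against 18.7 CPM. These 3 were named because they are the genes most like Ppbp over the 10 clusters, with r of 0.973 for Psca, 0.968 for Ltf and 0.959 for Mal. Those clusters include the ones that hold the rich cells, so r is not a separate result. Psca was found in 12 of the normal and 24 of the wounded rich cells, Ltf in 8 and 23, and Mal in 13 and 27.

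Keratins and other markers in the rich cells were picked after their values were seen. Krt13, a keratin of wet stratified epithelium, was at 7811 against 568 CPM in normal Anal Canal and at 6899 against 1158 CPM in wounded Basal. Cnfn of the cornified envelope was at 5110 against 22.0 CPM and 2915 against 22.4 CPM, found in 7 of 13 and 18 of 28 rich cells. Krt10 of dry epidermis was lower in the rich cells of both libraries (log2 ratio -3.65, -4.26 to -3.11, and -3.82, -4.29 to -3.38). Krt17, a transition zone marker of the study, had higher summed levels in the rich cells (1.59 normal and 3.73 wounded), and Krt5 was lower (-0.87 and -0.86). A Krt17 UMI was found in 8 of 13 rich and 249 of 419 other normal cells. In wounded Basal it was found in 12 of 28 rich and 262 of 545 other cells. The higher sums thus did not go with a clearly larger share of cells. Of the 5 platelet markers, which summed to between 1.47 and 12.2 CPM in the named clusters, Gp9 and Gp1ba had 0 UMIs in every one. Pf4 had 1 UMI in normal rich cells and 3 in wounded ones, and Itga2b 0 and 2. Ptprc, the CD45 gene, had 0 UMIs in the rich cells of both libraries. Cxcl17 was seen only here among named cells: its 8 normal UMIs all lay in Anal Canal and its 14 wounded UMIs all in Basal, 3 and 9 of them in the Ppbp-rich cells. Cxcl16 was also higher in the rich cells (81.2 against 17 CPM, log2 ratio 2.26, 1.24 to 3.15, and 73.8 against 10.3 CPM, 2.85, 2.05 to 3.59).

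Of the 27 other chemokine ligands in the tables, 20 had under 20 UMIs in the named cells of the normal library and 17 in those of the wounded library. Cxcl10, the interferon-induced Cxcr3 ligand, was at 50.8 CPM in Regeneration and 24.0 CPM in normal Basal, the clusters of Cxcl1, and at 0 to 10.8 CPM in the other named clusters. Cxcl12 was at 37.7 CPM in normal Basal, and Ccl25 at 3.50 to 19.6 CPM throughout. Receptors were scarce in this epithelial gate. Of 23 chemokine receptors, 21 had under 20 UMIs in named normal cells and 17 in named wounded cells, and the scavenger Ackr3 was the most abundant at up to 17.7 CPM. The CD45+ cells on which the ligands act were sorted out, and the immune list summed to 1.85 to 20.9 CPM in the named clusters outside Rectum, whose higher sums are given above. Of the inducers, Il33, the alarmin of barrier epithelium, was at 134 CPM in Regeneration and at 154 CPM in Wound_Stress. Of the receptors for inducing cytokines, Il17rc (32.4 to 66.7 CPM) and Tnfrsf1a (28.2 to 119 CPM) were present in all named clusters. Others were not: Il17ra had no UMI in normal Rectum, nor did Tnfrsf1b in normal Basal, normal Suprabasal and Wound_Stress.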

How the data were processed

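Anorectal epithelial cells were profiled with 10x 3′ chemistry, with 1 pooled library per condition and no replicates. Per the labels, the submitters' processing notes name Cell Ranger 3.1.0, Seurat 3.2.2 and the build mm10. A matrix header names another Cell Ranger version. The feature tables also differ, with 31054 genes in the normal and 32285 in the wounded library, and with 1 and 3 entries for the symbol Ccl27a. The gene reference was thus not the same for both libraries, and its part in the ratios between them was not tested. As deposited, the matrices hold raw counts of UMIs by gene and barcode. For the cells the authors clustered, the deposited tables hold natural log values, each made from a whole number after adding 1. How those whole numbers were obtained is not given in the sources used here. The cluster names in the tables were joined to the counts by barcode. Left-out cells are barcodes that met the study's stated limits (200 to 5000 genes, under 25% mitochondrial UMIs) and have no name there. No doublet caller was run.

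UMIs were summed per cluster and given as CPM with exact Poisson 95% intervals, and ratios with exact binomial intervals (Python 3.11.15, numpy 2.4.6, pandas 2.3.3, scipy 1.17.1). Intervals and limits cover counting error only. Shares of cells have Clopper-Pearson intervals and were also taken after thinning to 2000 UMIs, leaving out shallower cells (132 in Hybrid). A count of 0 was set to 3 UMIs for a ratio. A gene was tested with at least 20 UMIs in both groups together. No p-value was computed. Cells were clustered anew in R 4.3.3 with Seurat 5.3.0 at a resolution of 0.2, without the members and pathway genes. A rebuilt cluster was named after a marker list when the list's mean log2 ratio was above 2 and at least 3 of its markers were each found in at least 20% of cells, a rule set after the data were seen. The anal gland list came from the study's analysis of the normal sample and is not independent of it. The code was tested on simulated data.

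The members, lists and rules were chosen with earlier results of these data known. Named were all 8 members, up to 5 genes of each list with the most UMIs and, for each member, the 3 genes with the highest Pearson r of log2(CPM + 1) over the 10 named clusters. Icam1, Cxcl3 and the keratins and envelope genes were named after their values were seen. Alternatives were the mean of per-cell CPM, other limits on cells and UMIs, totals without mitochondrial genes, centred ratios, the deposited tables and, chosen after the data were seen, other base clusters and leaving out the cell with the most UMIs of a member in each group.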

Additional observations from a re-analysis of the deposited data

Results flagged for a closer look

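Suprabasal against Basal cells gave opposite signs in the libraries for 4 members. On the log2 scale Cxcl1 was 2.16 in the wounded and -3.22 in the normal library, Cxcl14 2.16 and -0.86, Cxcl16 1.30 and -0.81, and Ccl27a 2.10 and -0.65. The name Basal marked unlike cells in the libraries, and wounded Basal was near normal Anal Canal in suprabasal markers. Normal Suprabasal over Anal Canal, a base chosen after the data were seen, gave 3.02 for Cxcl14, 1.05 for Ccl27a and 0.91 for Cxcl16. Cxcl1 was at 0.65 there (-0.33 to 1.62). Left-out against named cells gave -2.58 for Cxcl1 in the wounded and 0.63 in the normal library. These differences were not tested, since each condition has 1 library.

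Barcodes that did not pass the filters held 166 Cxcl2 UMIs in 51 of 11991 wounded barcodes (5.03 CPM, at most 16 in 1 barcode) and 2 UMIs among 1015 normal barcodes (1.28 CPM), a log2 ratio of 1.97 (0.09 to 5.03). Lower in these wounded barcodes were Cxcl1 (-1.74, -2.66 to -0.67, 70 against 11 UMIs), Cxcl14 (-1.36, -1.59 to -1.12, 1414 against 171) and Ppbp (-1.54, -2.50 to -0.42, 73 against 10). The intervals of Ccl20, Cxcl16 and Ccl27a held 0, and Cxcl17 had no UMI. The share of all genes that differed between these barcodes was not computed, so the differences cannot be called particular to the members. The part of the makeup of these barcodes was not tested.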

How the results depend on the processing

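Of 105 alternative counts over 13 comparisons, 94 stayed within 1.5 times the count reported. With normal Anal Canal as base, the called members of wounded over normal Basal went from 5 to 2 and Cxcl14 turned from -3.15 to 0.73. For Suprabasal, wounded over normal, 1 became 0 with the mean of the per-cell CPM, 3 without the UMI minimum and 2 with Basal and Suprabasal as base. For Rectum, 1 became 3 with the mean per-cell CPM and 2 from the deposited tables. For Hybrid over Basal, 4 became 2 in cells under 10% mitochondrial UMIs, and for normal Suprabasal over Basal 1 became 3 with the mean per-cell CPM. That mean also turned the log2 ratio of Cxcl16, Rectum over stratified, wounded, to 0.0387 and that of Cxcl2 in wounded Suprabasal over Basal to -0.47. Wound_Stress alone over Basal and Suprabasal gave -0.41 for Cxcl1, at most -2.76 for Cxcl2, which had 0 UMIs, and -0.79 for Ccl20. Without the cell with the most UMIs of a member in each group, an alternative added after the data were seen, called members between libraries became 0 in Suprabasal, 0 in Rectum and 2 in left-out cells, and the Ppbp log2 ratios turned to -4.15 in Rectum, -1.73 in left-out cells and 3.05 in Hybrid over Rectum. The first and last of these compare 1 UMI with a count of 0 set to 3, so they give no fold. The median log2 ratio of all genes lay between -0.29 and 0.21, and centring on it left all 13 counts within that range of 1.5 times. The cause of these changes was not tested.

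No paired analysis was possible because each condition has 1 library. Ccl20 and Cxcl17 had at most 28 UMIs in any named cluster.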
